A study of Drosophila melanogaster with 8 samples.

Results

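A set of 129 genes was expressed in control eye-antennal discs and at least 4-fold lower in every other eye-antennal library, out of 15348 genes counted. Levels are in CPM, the count of a gene scaled to a common library total over all genes. A gene belonged to the set when it had at least 5 CPM in control and its CPM plus 0.1 was at least 4 times that of each of the 6 other eye-antennal libraries. By level and fold alone 158 genes met this rule, and 29 were left out by symbol. These were 22 genes of the larval cuticle families Cpr, Lcp and Vajk, and 7 muscle genes (Act57B, Mlc1, Mlc2, Tm2, up, Prm and TpnC25D). The cuticle families Ccp84A and Twdl were also to be left out, but none of their genes met the level and fold. The 7 eye-antennal libraries therefore chose the members, and their values are given as a description. The question was which tissue the remaining genes mark.

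RNA came from eye-antennal imaginal discs of wandering Drosophila melanogaster larvae, with 1 library per group and no replicate, so no difference was checked against a spread between replicates. Each library pooled the dissected discs of many larvae. All eye-antennal libraries shared y, w and eyflp on the X chromosome, act>y+>Gal4 with UAS-GFP, and FRT82 e tub-GAL80 over an FRT82 chromosome. The FLP recombinase, driven by an eyeless enhancer, made clones that lost the GAL80 repressor, so that every disc was a mosaic of clone and non-clone cells. Genotypes reached the wandering stage at different ages, so age and genotype cannot be told apart outside RasV12, which had the age of control. The RasV12 library, collected 5 days after egg laying, carried UAS-Ras[V12], an always-active Ras. The BskDN library (11 days) carried UAS-Bsk[DN], which blocks the Jun N-terminal kinase. The scrib BskDN library (6 days) had that transgene with e scrib[2], a mutation of the polarity gene scribble, on the FRT82 chromosome. The RasV12 scrib BskDN library (6 days) had all 3 changes. The RasV12 scrib tumour genotype was taken early (7 days) and late (11 days). Control discs (5 days) had clones with no such transgene or mutation. A further library, labelled wing disc, came from w/+ larvae with FRT82 e scrib[2] over scrib[1], mutant in the whole animal (6 days), with no wing control, and it took no part in the choice of members.

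Imaginal discs are internal epithelial sacs that lie against larval tissues: eye-antennal discs are joined to the mouth parts and the brain, next to larval cuticle, head muscle, the ring gland and sense organs. Larval cuticle is secreted by polyploid epidermis and larval muscle is built of sarcomeres, while odorant-binding proteins are small secreted proteins found mostly in the fluid around chemosensory neurons. In RNA from pooled tissue, fewer cells of a type and less RNA per cell cannot be told apart.

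Libraries held 17152279 to 21027972 counts in genes. A single count equalled 0.0476 to 0.0583 CPM, and the floor of 3 counts equalled 0.143 to 0.175 CPM. The intervals given are exact at the 95% level and hold for counting error only, since no library was repeated. Markers of eye disc and retina summed to between 860 and 1835 CPM in the other eye-antennal libraries, to 444 CPM in the scrib wing library and to 1536 CPM in control. The wing and hinge markers vg and nub were at 2.10 and 3.498 CPM in the scrib wing library, against 1.46 and 5.40 CPM in control, Antp was at 0.117 CPM, against 12.05 CPM, and zfh2 at 186 CPM, against 132 CPM. Thus nub and Antp were below control there, while vg and zfh2 were above it, with vg at a low level in both libraries. Only these 4 markers could be read, since 2 further entries of the list matched no gene. The markers went both ways, so they did not clearly bear out the wing label of the scrib mutant library. It is called the scrib wing library only after that label.

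Together the 129 members held 645 CPM in early and 366 CPM in late tumours, 200.4 CPM in RasV12 scrib BskDN and 597 CPM in scrib BskDN discs, and 459 CPM in RasV12 and 272 CPM in BskDN discs, against 11586 CPM, or 1.16% of all counts, in control. The sum was thus 18.0 to 57.8 times lower in these libraries than in control, with the smallest gap in the early tumour and the largest in RasV12 scrib BskDN. Of the 7583 genes with at least 5 CPM in control, which could have met the rule, 2.08% were at least 4-fold lower in all 6 libraries. Taken 1 library at a time, 5.75% of these genes were at least 4-fold lower in early and 5.25% in late tumours, 4.63% in RasV12 scrib BskDN, 4.02% in scrib BskDN, 4.38% in RasV12 and 4.5% in BskDN discs. All 129 members are among them by the rule, so nothing is read from that count.

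**Figure D1:**
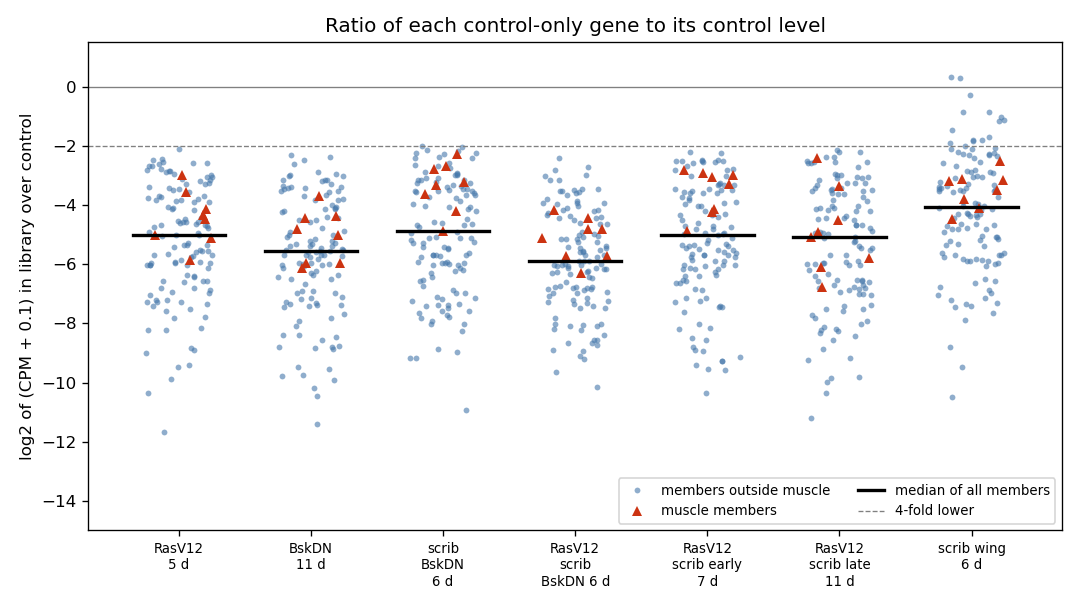
Each point is 1 of the 129 control-only genes, placed by the log2 of its CPM plus 0.1 in a library over that in control, with the median as a bar, the muscle members as triangles and a dashed line at 4-fold lower. The 6 eye-antennal libraries lie at or under the dashed line by the rule, with medians from -5.88 in RasV12 scrib BskDN to -4.89 in scrib BskDN, and the scrib wing library, which the rule did not use, has a median of -4.07 with 15 genes above the line.

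Within the rule the members differed widely. The ratio of control to the highest of the 6 other libraries had a median of 11.3 and reached 801, and 72 members had a ratio of at least 10 while 30 were under 6. Control levels ran from 5.02 to 1395 CPM with a median of 28.3 CPM. The 20 members with the most counts held 68.8% of the members' control CPM. Just inside the fold limit were CG15201 (4.001), EbpIII (4.13) and wat (4.26), and just outside were lcs (3.97), Jig (3.88) and CG11350 (3.88). Just inside the level limit were CG11585, CG42821 and CG42246, each at 5.02 CPM in control, and just outside were Cyp6a2 and CG10345 at 4.75 CPM and CG6012 at 4.70 CPM.

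The libraries also differed in which of them held the remaining RNA. The highest of the 6 was scrib BskDN for 35 members, the early tumour for 31, the late tumour for 22, RasV12 for 20, BskDN for 11 and RasV12 scrib BskDN for 10. Between 34 and 46 members were at or under 3 counts in each of these libraries, so for these the size of the difference is limited by depth. By symbol, 39 members were assigned a known role, 13 others had a name, 74 had an annotation number only and 3 identifiers had no symbol.

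Muscle genes were still among the members, although the rule left out 10 muscle symbols. The projectin gene bt, which encodes a giant sarcomere protein, was at 63.6 CPM in early and 51.2 CPM in late tumours, 18.8 CPM in RasV12 scrib BskDN and 43.0 CPM in scrib BskDN discs, 30.2 CPM in RasV12 and 18.5 CPM in BskDN discs, and 57.1 CPM in the scrib wing library, against 526 CPM in control (515 to 536). Myofilin (Mf), a thick filament protein gene, was at 71.9 CPM in early and 21.9 CPM in late tumours, 17.9 CPM in RasV12 scrib BskDN and 73.6 CPM in scrib BskDN discs, 42.1 CPM in RasV12 and 22.8 CPM in BskDN discs, and 57.3 CPM in the scrib wing library, against 501 CPM in control. Both genes were still detected at 17.9 CPM or more in every library, highest in the early tumour for bt and in scrib BskDN for Mf. The calcium sensor gene TpnC47D, a troponin C, was at 3.65 CPM in early and 0.907 CPM in late tumours, 1.28 CPM in RasV12 scrib BskDN and 3.59 CPM in scrib BskDN discs, 1.80 CPM in RasV12 and 1.47 CPM in BskDN discs, and 4.84 CPM in the scrib wing library, against 109 CPM in control. It was 30.0 times lower in the early tumour (23.8 to 38.3) and 120.4 times lower in the late tumour (76.0 to 204) than in control.

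The other muscle members were Mp20, a calponin-like gene (9.12 to 42.4 CPM in the 6 libraries, against 275 CPM in control), the Z-disc LIM protein genes Mlp84B (4.85 to 18.4 CPM, against 170.03 CPM in control) and Mlp60A (1.11 to 8.09 CPM, against 81.96 CPM), the giant kinase gene Obsc (1.37 to 5.11 CPM, against 91.96 CPM) and RyR, the calcium release channel (1.90 to 9.18 CPM, against 44.6 CPM). The 8 muscle members summed to 63.0 CPM in RasV12 scrib BskDN and 208 CPM in the early tumour, the extremes of the 6 libraries, against 1799 CPM in control. They were 8.66 to 28.6 times lower. The 7 left-out muscle genes summed to between 100.4 and 484 CPM in the same libraries, against 4851 CPM in control, 10.03 to 48.3 times lower. In 5 of the 8 muscle members the highest of the 6 libraries was scrib BskDN, and in the other 3 it was the early tumour.

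Not every muscle gene was a member. Of the 26 matched genes of a body wall muscle list 5 were members (bt, Mf, TpnC47D, Mlp84B and Mlp60A), and 13 of its 18 genes with at least 5 CPM in control were higher in control than in each of the 6 libraries. Mef2, a factor of all muscle, was between 51.9 and 66.6 CPM in the 6 libraries and at 62.7 CPM in control, and the actin-binding gene Tm1, which non-muscle cells also use, was between 708 and 937 CPM there and at 1253 CPM in control. Act87E, a muscle symbol that the rule names, was at 8.02 to 28.5 CPM in the 6 libraries and 109 CPM in control and missed the fold limit. The symbols Mhc and wupA, also named in the rule, matched no identifier of the table. The 3 members without a symbol could therefore include genes that the rule meant to leave out, and 2 of them had among the most counts of all members. FBgn0086783 was at 11.0 to 116 CPM in the 6 libraries and 88.4 CPM in the scrib wing library, against 1395 CPM in control, and FBgn0004028 was at 9.38 to 48.4 CPM and 39.1 CPM there, against 409.98 CPM in control. The highest of the 6 libraries was the early tumour for FBgn0086783 and scrib BskDN for FBgn0004028, the same 2 libraries as for the 8 muscle members. Whether they are muscle genes was not tested. These 3 identifiers are not counted among the muscle members, so every value given without muscle still holds them. They held 15.7% of the members' control CPM. Without these 3 identifiers 126 members summed to 177 to 502 CPM in the 6 libraries, against 9769 CPM in control, 19.5 to 55.1 times lower. The smallest gap was then in scrib BskDN (19.5 times) and no longer in the early tumour (19.9 times).

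**Figure D2:**
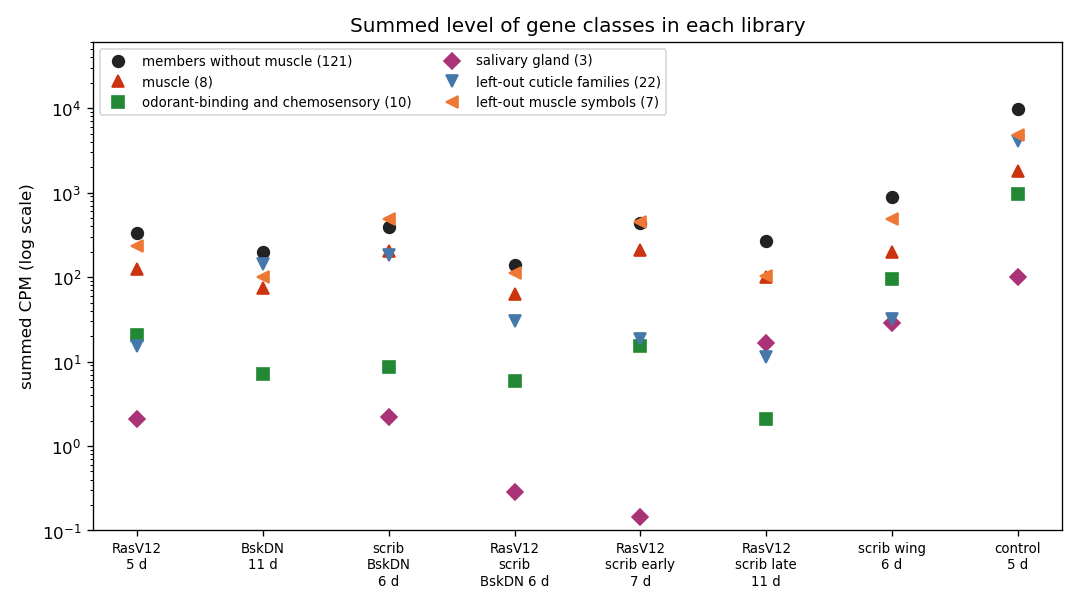
Points are the summed CPM of gene classes (log scale) in each library, with the number of genes in each class in the legend. Each class is highest in control, both muscle classes are highest after control in scrib BskDN, the early tumour and the scrib wing library, and the chemosensory class falls between 2.12 and 20.4 CPM in the 6 other eye-antennal libraries, while the salivary gland class, at 0 in BskDN and not drawn there, is higher in the late tumour and the scrib wing library than in the other perturbed libraries.

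Odorant-binding protein genes were the largest named family among the members outside muscle. There were 51 Obp genes among those counted, of which 14 had at least 5 CPM in control and 9 were members. Obp56a was at 6.86 CPM in early and 0.555 CPM in late tumours, 1.47 CPM in RasV12 scrib BskDN and 2.45 CPM in scrib BskDN discs, 10.1 CPM in RasV12 and 2.84 CPM in BskDN discs, and 60.5 CPM in the scrib wing library, against 666 CPM in control (654 to 678). Obp56e was at 2.67 CPM in early and 0.0504 CPM in late tumours, 0.0476 CPM in RasV12 scrib BskDN and 0.0499 CPM in scrib BskDN discs, 4.90 CPM in RasV12 and 0 in BskDN discs, and 14.3 CPM in the scrib wing library, against 86.6 CPM in control. In both genes RasV12 and the early tumour held the most of the 6 libraries, and the scrib wing library held more than any of them. The others were Obp49a, Obp56h, Obp28a, Obp56b, Obp58c, Obp47a and Obp56c, between 6.43 and 52.4 CPM in control and at most 1.85 CPM in any of the 6. EbpIII, a gene of the insect chemosensory protein family, was at 1.21 to 5.14 CPM in the 6 libraries, against 21.6 CPM in control.

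Together these 10 genes summed to 15.2 CPM in early and 2.12 CPM in late tumours, 5.85 CPM in RasV12 scrib BskDN and 8.64 CPM in scrib BskDN discs, and 20.4 CPM in RasV12 and 7.21 CPM in BskDN discs, against 965 CPM in control, 47.3 to 456 times lower. These genes were picked for being low there. Over all 236 matched genes of the chemosensory list the sum was 524 to 940 CPM in the 6 libraries, against 1873 CPM in control, 1.99 to 3.58 times lower. Over the 26 genes of the body wall muscle list it was 2927 to 3588 CPM, against 6990 CPM in control, 1.95 to 2.39 times lower. That list holds none of the 7 left-out muscle genes, which were 10.03 to 48.3 times lower in sum. Its highest control levels were those of Argk1 (1613 CPM), Tm1 (1253 CPM), SERCA (892 CPM) and Msp300 (738 CPM), none of them a member. Of the other Obp genes with at least 5 CPM in control, Obp56d missed the rule through 1 library, with 128 CPM in RasV12 scrib BskDN, at most 24.1 CPM in the other 5 and 217 CPM in control. Obp99a was between 22.1 and 210.3 CPM in the 6 libraries and at 215 CPM in control, and Obp44a, known from glia, was between 76.4 and 621 CPM there and at 37.8 CPM in control. Among 178 chemoreceptor genes (Or, Ir and Gr) 4 had at least 5 CPM in control and none was a member.

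Outside these classes Nplp4, a neuropeptide-like precursor gene, was at 13.6 CPM in early and 0.504 CPM in late tumours, 1.28 CPM in RasV12 scrib BskDN and 7.64 CPM in scrib BskDN discs, 9.15 CPM in RasV12 and 1.12 CPM in BskDN discs, and 13.8 CPM in the scrib wing library, against 559.8 CPM in control. It was the only member among 18 neuropeptide genes, 5 of which had at least 5 CPM in control. Its neighbour CG15353, with 53 residues the shortest protein among the members, was at 17.9 CPM in early and 6.15 CPM in late tumours, 6.28 CPM in RasV12 scrib BskDN and 64.5 CPM in scrib BskDN discs, 67.3 CPM in RasV12 and 20 CPM in BskDN discs, and 41.9 CPM in the scrib wing library, against 704 CPM in control. Both were lowest in the late tumour. On the scale of CPM per kilobase of annotated exon, control levels were 2011 for CG15353, 1218 for Obp56a, 1060 for Nplp4, 724 for CG7465, 94.5 for Mf and 18.8 for bt.

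The 4 members with the largest ratios had annotation numbers only. CG15597 was at 0.0486 CPM in early and 0.0504 CPM in late tumours, 0.143 CPM in RasV12 scrib BskDN and 0 in scrib BskDN discs, 0.0500 CPM in RasV12 and 0.102 CPM in BskDN discs, and 0.175 CPM in the scrib wing library, against 194 CPM in control. No library but control held more than 3 counts of it. CG10953 was likewise at 0 or 1 count in all 7 other libraries, against 70.6 CPM in control. CG7465 was at 0.972 CPM in early and 0.807 CPM in late tumours, 0.618 CPM in RasV12 scrib BskDN and 2.60 CPM in scrib BskDN discs, 0.150 CPM in RasV12 and 0.203 CPM in BskDN discs, and 0.466 CPM in the scrib wing library, against 816 CPM in control, so that it was 314 times lower in scrib BskDN (239 to 421). CG32603 (at most 0.761 CPM in the 6 libraries, against 232 CPM in control), CG13545 (at most 0.681 CPM, against 54.7 CPM) and CG7203 (at most 0.243 CPM, against 24.3 CPM) were also among the 10 members with the largest ratios. Among the 20 with the most counts, CG9297 was at 1.37 to 12.1 CPM in the 6 libraries, against 242 CPM in control, and CG1674 was at 13.2 to 23.9 CPM, against 152 CPM in control. The 74 members with numbers only summed to between 71.1 and 207 CPM in the 6 libraries, against 5223 CPM in control, which was 45.1% of the members' control CPM.

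Enzymes of the body surface and of oxidation made up a further class of 9 genes. The cytochrome P450 genes Cyp313a2, Cyp313a3 and Cyp313a5 lie side by side on 3R. Cyp313a2 had no count in any of the other 7 libraries, which allows up to 0.143 to 0.175 CPM, against 17.1 CPM in control, and was therefore at least 114 times lower in RasV12 and at least 113 times lower in the late tumour. Cyp313a3 and Cyp313a5 were at most 0.190 CPM in any of the 6 libraries, against 17.2 and 14.1 CPM in control. A further P450 gene, Cyp4c3, was at most 0.252 CPM there, against 8.97 CPM in control. Gld, a glucose dehydrogenase known to act in cuticle modification, was at 20.03 CPM in early and 9.88 CPM in late tumours, 9.04 CPM in RasV12 scrib BskDN and 12.9 CPM in scrib BskDN discs, 18.6 CPM in RasV12 and 13.96 CPM in BskDN discs, and 33.5 CPM in the scrib wing library, against 163 CPM in control. The others were the peroxidase gene Pxd (0 to 7.04 CPM in the 6 libraries, against 37.3 CPM in control), the aldehyde oxidase gene AOX2 (0.0508 to 0.948 CPM, against 24.7 CPM), wat, a fatty acyl-CoA reductase gene needed for gas filling of the trachea (1.46 to 5.30 CPM, against 22.9 CPM), and t, the tan hydrolase gene of pigmentation (0.285 to 0.914 CPM, against 7.94 CPM). In this class the P450 genes were at or near 0 outside control, while Gld and wat kept a level in every library.

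Among peptidase genes CtsK2, a cathepsin gene, was at 0.243 CPM in early and 0.403 CPM in late tumours, 0.476 CPM in RasV12 scrib BskDN and 0.849 CPM in scrib BskDN discs, 0.300 CPM in RasV12 and 18.02 CPM in BskDN discs, and 3.15 CPM in the scrib wing library, against 192 CPM in control. BskDN stood apart from the other 5 here. The angiotensin-converting enzyme relative Ance-3 (0 to 3.26 CPM in the 6 libraries, against 22.7 CPM in control) and the neprilysin-like gene Nepl7 (0 to 0.102 CPM, against 8.37 CPM) were the other members. Genes of juvenile hormone binding or breakdown were 3: Jhbp14 (0 to 1.15 CPM, against 48.7 CPM), Jhbp3 (0.0476 to 2.09 CPM, against 10.3 CPM) and the epoxide hydrolase gene Jheh3 (2.18 to 6.81 CPM, against 32.04 CPM). The 3 tetraspanin members, Tsp42Ea, Tsp42Eg and Tsp42Eh, summed to between 1.42 and 8.37 CPM in the 6 libraries, against 44.6 CPM in control.

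Named members with other roles included the sterol-binding gene Npc2b (4.66 to 14.6 CPM in the 6 libraries, against 87.8 CPM in control), the antibacterial peptide gene Listericin (0.799 to 4.38 CPM, against 54.2 CPM), the mitochondrial phosphate carrier gene Mpcp1 (0.0508 to 2.95 CPM, against 50.4 CPM), the chitin-binding gene Peritrophin-A (2.27 to 7.34 CPM, against 33.7 CPM) and the integrin gene ItgaPS4 (0.750 to 2.42 CPM, against 21.02 CPM). The carbonic anhydrase gene CAH9 was at 0 to 0.454 CPM, against 6.27 CPM in control. The remaining 7 were hlk, l(2)34Fc, l(3)mbn, SmydA-9, FipoQ, Nplp4, given above, and CR30029, annotated as a pseudogene. Peritrophin-A was the single member among 13 genes of chitin binding or chitin enzymes with at least 5 CPM in control.

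**Figure D3:**
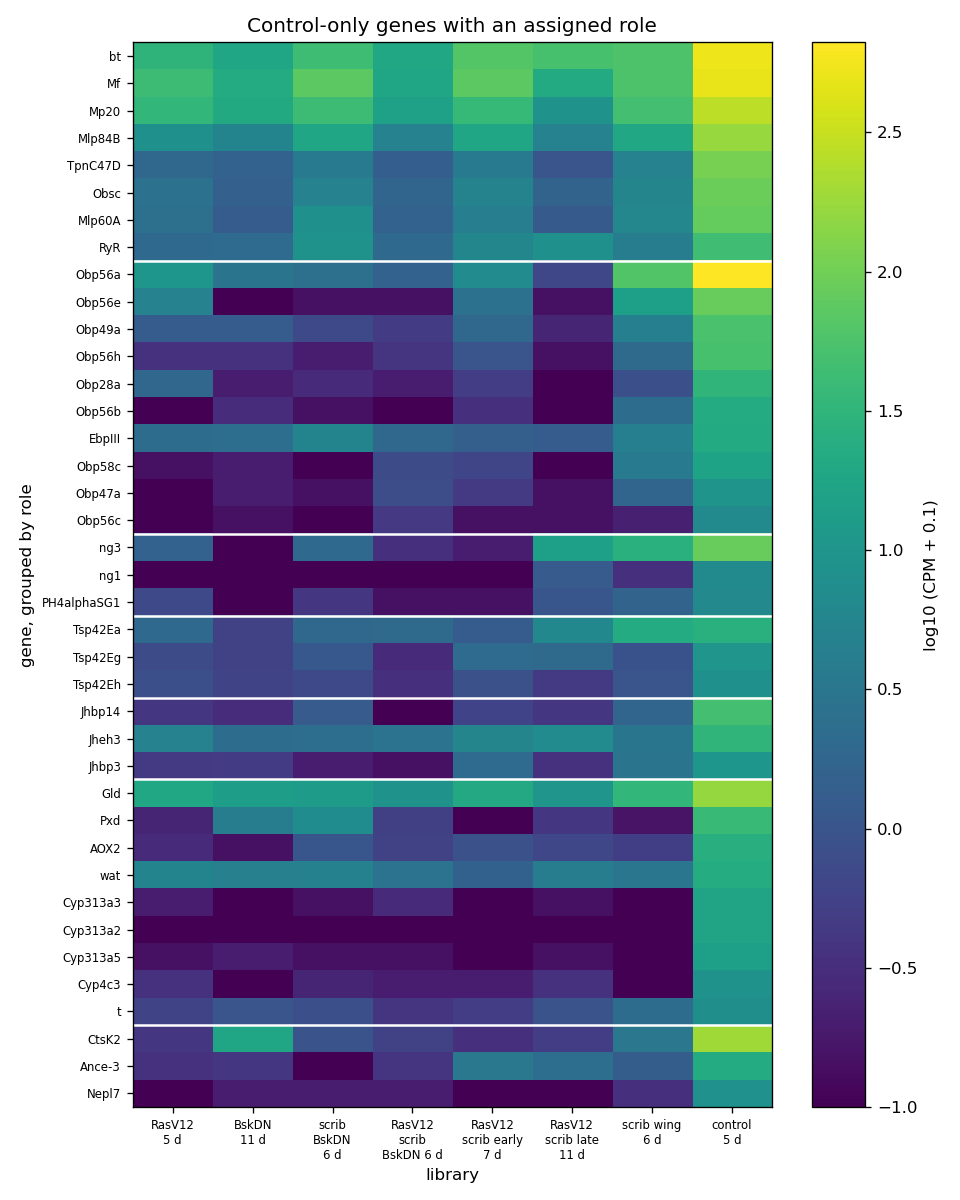
Colour gives log10 of CPM plus 0.1 for the 39 members with an assigned role (rows, grouped by role between white lines) in each library (columns). Every row is brightest in control, and rows differ in the other libraries: bt and Mf are at 17.9 CPM or more in every library, Obp56a is at 60.5 CPM in the scrib wing library and 0.555 CPM in the late tumour, the 4 P450 rows are at or near 0 outside control, and ng3 and Tsp42Ea are brightest after control in the scrib wing library and the late tumour.

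The new glue gene ng3, of the larval salivary gland, was at 0.0972 CPM in early and 14.4 CPM in late tumours, 0.238 CPM in RasV12 scrib BskDN and 1.90 CPM in scrib BskDN discs, 1.5 CPM in RasV12 and 0 in BskDN discs, and 26.8 CPM in the scrib wing library, against 87.1 CPM in control. CG11300 was at 0.0486 CPM in early and 10.2 CPM in late tumours, 0.285 CPM in RasV12 scrib BskDN and 2.85 CPM in scrib BskDN discs, 4.05 CPM in RasV12 and 0.152 CPM in BskDN discs, and 61.3 CPM in the scrib wing library, against 112 CPM in control. Both were highest after control in the scrib wing library and the late tumour. With that order as the criterion, and at least 1 CPM in both, 8 members (6.2%) qualified, against 2.93% of the 7583 genes with at least 5 CPM in control: ng3, CG11300, CG17362, CG8087, CG8708, CG13135, ItgaPS4 and Tsp42Ea. The criterion was chosen after the values were seen, from ng3 and CG11300, which are among the 8. The rule had limited the levels of members in the 6 libraries, so the 7583 genes are no like basis for this share. ItgaPS4 met the criterion narrowly, with 48 counts in the late tumour, 45 in BskDN and 48 in the deeper RasV12 scrib BskDN library. The neighbour ng1 was at 1.16 CPM in the late tumour, 0.233 CPM in the scrib wing library and 0 in the other 5, against 6.43 CPM in control, and PH4alphaSG1, a prolyl 4-hydroxylase gene named for the salivary gland, was at 0 to 0.958 CPM in the 6 libraries, against 6.11 CPM in control. The glue gene Sgs3 did not share the pattern, at 328 CPM in RasV12, 405 CPM in scrib BskDN and at most 4.26 CPM in the other 4, against 10.7 CPM in control. Sgs1, Sgs4, Sgs5, Sgs5bis, Sgs7, Sgs8 and Eig71Ee likewise exceeded control in both RasV12 and scrib BskDN. All 27 matched genes of the salivary gland list summed to 307 CPM in control. RasV12 held more (1902 CPM), as did scrib BskDN (1447 CPM), and the other 4 held 70.9 to 244 CPM. Control was the highest of the 7 libraries for 4 genes of this list. The salivary gland members thus do not stand for salivary gland RNA as a whole. ng1 has a close copy, ng2, and the read counts of such copies are uncertain.

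Lists of markers for 23 tissues or cell types were set against the members, and only genes with at least 5 CPM in control could be members. Members were 1.7% of all 7583 such genes. Of these genes they were 10 of 20 in the chemosensory list, 5 of 18 in the body wall muscle list, 2 of 10 in the salivary gland list, 1 of 5 in the neuropeptide list and 1 of 4 (ItgaPS4) in the lamellocyte list. In sum the salivary gland list was not highest in control, as given above. Nor was the lamellocyte list, at 380 to 719 CPM in the 6 libraries and 429 CPM in control. The other 18 lists held none, and 8 of them had 3 such genes or fewer. Among these the plasmatocyte list (14 genes) summed to between 1509 and 3368 CPM in the 6 libraries, against 3671 CPM in control, and the crystal cell list (3 genes) to between 168 and 625 CPM, against 959 CPM. The fat body list (16 genes) summed to between 223 and 5727 CPM, against 723 CPM in control. The list of larval epidermis and cuticle genes outside the left-out families (25 genes) summed to between 2191 and 3617 CPM, against 3088 CPM in control, and the trachea list (29 genes) to between 2694 and 3756 CPM, against 3055 CPM in control. The highest control levels were those of verm (755 CPM), Gasp (584 CPM) and kkv (427 CPM) in the epidermis list and of verm, uif (736 CPM) and Gasp in the trachea list. These sums say little about genes at low levels. In the epidermis list control was the highest of the 7 libraries for 2 of 20 genes, zye (59.3 CPM) and Edg91 (11.6 CPM), and in the trachea list for 2 of 11. Midgut genes (47) summed to at most 75.4 CPM in the 6 libraries and 63.9 CPM in control, with 21 at 0 counts in control, and testis genes (12) to at most 3.53 CPM and 0.919 CPM, with 9 at 0 in control. None of the lists of neurons (12 genes), glia (10), tendon cells (5), adult muscle precursors (4), immune effectors (66), oenocytes (4), hindgut and Malpighian tubule (8), ring gland and corpora cardiaca (6), nephrocytes and heart (7), eye disc and retina (17) or hinge and wing (4) held a member. Control was the highest of the 7 libraries in its ring gland sum, 742 CPM, with 23.7 to 597 CPM in the 6 others.

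The left-out cuticle and muscle genes, which met the same rule, were likewise low outside control. The 22 left-out cuticle genes summed to 18.7 CPM in early and 11.2 CPM in late tumours, 30.4 CPM in RasV12 scrib BskDN and 181 CPM in scrib BskDN discs, 15.5 CPM in RasV12 and 142 CPM in BskDN discs, and 32.0 CPM in the scrib wing library, against 4044 CPM in control. Whether the members come from the same cells as these cuticle and muscle genes was not tested, and no single tissue list covered them. Another 110 members stood in none of the 23 lists. Among them Mp20, Obsc and RyR were placed in muscle, and PH4alphaSG1 in the salivary gland class, by known role or name only. The rest could not be given a tissue from these counts.

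The scrib wing library is the only one the rule did not use, although a comparison with it shares the control library. Of the 129 members 114 (88.4%) were at least 4-fold lower there than in control, against 5.66% of the 7583 genes with at least 5 CPM in control, and 13 had no count. The median log2 ratio of the scrib wing library over control was -4.07 for the members and -0.07 for those 7583 genes. The members were chosen as high in this same control library, so those genes are no like basis for either figure. All 8 muscle members and all 10 chemosensory members were at least 4-fold lower. The members were, however, less low there than in the 6 libraries that chose them: summed they held 1081 CPM, 10.7 times lower than control, and 53 members (41.1%) were higher there than in each of the 6 others, against 11.1% of the 7583 genes. The 6 others had to be low by the rule, so this share has no like basis in other genes.

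The 15 members that were not 4-fold lower in the scrib wing library included 2 that were higher there than in control. CG13043 was at 35.2 CPM there and at 0.0499 to 3.75 CPM in the 6 libraries, against 28.3 CPM in control. CG13947 was at 26.2 CPM there, at most 0.857 CPM in the 6 libraries, and 21.1 CPM in control. Tsp42Ea, with 22.2 CPM there against 26.6 CPM in control, was 1.20 times lower (1.05 to 1.38), CG11300 was 1.82 times lower (1.69 to 1.96) and CG17134, at 105 CPM there and 212 CPM in control, 2.01 times lower (1.90 to 2.13). CG42779, CG17362, Listericin, CG34165, ng3, CG32726, Jhbp3, t, PH4alphaSG1 and CG8087 were the others. At the other end CG7465 was 1749 times lower (887 to 4051), and CG15597, CG10953, Pxd and CG13560 had at most 3 counts there. The 22 left-out cuticle genes were 126 times lower in sum in the scrib wing library and the 7 left-out muscle genes 10.1 times lower.

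Gene structure and position took no part in the rule and are described here without a test. Gene structures and positions come from the BDGP6 annotation, joined by identifier for 126 members. The 125 with a coding sequence had a median of 223 residues, with quartiles of 134 and 432, against a median of 483 residues for 7043 other genes with at least 5 CPM in control. Proteins under 200 residues made up 46.4% of the members and 13.1% of the others. The median number of exons was 2 for members and 4 for the others, and 64.3% of members had at most 3 exons, against 41.3% of the others. The longest members were muscle genes, with 8933 residues for bt, 5134 for RyR and 4218 for Obsc. The median control level was 28.3 CPM for members and 51.2 CPM for the others.

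**Figure D4:**
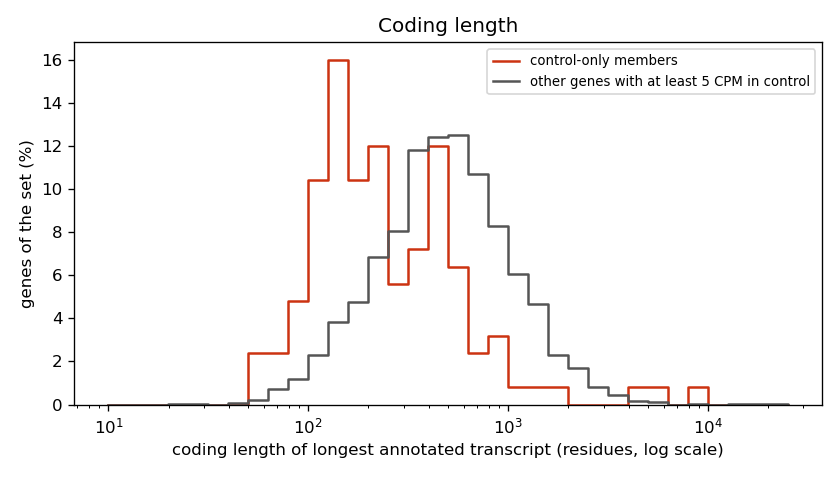
The lines give the share of genes (in %) by coding length in residues (log scale) for members and for other genes with at least 5 CPM in control. The members' line peaks below 200 residues, where 46.4% of them lie, and the other genes centre on a median of 483 residues.

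Members also lay near each other in the genome. Of the 126 placed members 50 (39.7%) had another member within 20 kb, in 19 groups, against 5.22% of 7092 other genes with at least 5 CPM in control. The largest group was 6 genes on 2L:10681030-10698043, CG17105, CG17107, CG7299, CG7296, CG17108 and CG7300, which were all but 1 of the 7 genes of the table in that span. Their control levels ran from 9.19 CPM (CG17107) to 234 CPM (CG17108), and CG17108 alone kept over 20 CPM in the early and the late tumour, at 40.1 and 24.3 CPM. A group of 4 on 3R:17413077-17418042, CG42821, CG42822, CG5866 and CG33333, held every gene of the table in its span. The Obp56 genes a, b, c and e formed another group of 4 on 2R, with Obp56d inside it, and the 3 Cyp313a genes stood on 3R:12232794-12239266. Further groups of 3 were CG32249, CG32248 and CG7465 on 3L:4470001-4481487, CG8087, CG14852 and CG31313 on 3R:14564323-14567429, and CG32603, CG11585 and CG13403 on X:14184561-14192018. By chromosome arm 35 members (27.8%) lay on 2R and 37 (29.4%) on 3R, against 19.8% and 24.4% of the others, and 15 (11.9%) on 3L, against 20.1%. Neighbouring genes of 1 family can share reads, and counts of overlapping genes depend on the strand setting, for which the sources used here give no value.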

How the data were processed

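The authors deposited 1 table of counts per FlyBase gene with 1 column per library. TopHat2 and HTSeq are the tools named, per the submitters' processing notes; for their versions, the genome build, the annotation and the strand setting the sources give nothing. The 5 tally rows were left out of totals: reads outside genes made up 3.41 to 7.33% of all counted and tallied reads, and multiply aligned reads 14.8 to 27.8%. All columns were used.

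CPM were computed over gene counts (15348 rows), with a pseudocount of 0.1 CPM in ratios. Symbols were matched for 14639 identifiers (95.4%), and positions came from a BDGP6 annotation. Ratios of single genes are without pseudocount, with exact conditional binomial (Clopper-Pearson) 95% intervals, and levels have exact Poisson intervals. A library at 0 was set to 3 counts for a ratio given as "at least". TMM and RLE factors came from edgeR 4.0.16 in R 4.3.3. No p-value was computed, since each group had 1 library. The members, the 23 marker lists and the alternatives were chosen with earlier results of these data known, and the role classes after the members' values were seen. The genes named were, by rule, the 20 members with the highest control CPM, the 10 with the largest ratios, those in lists, families or the 6 longest runs of neighbours, those at the extremes in the scrib wing library and those nearest the limits. The remaining named members and the other genes named for comparison were chosen after their values were seen. Alternatives tried were the scaling, the level and fold limits, the pseudocount and each comparison library in turn. Sequences were not used here.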

Additional observations from a re-analysis of the deposited data

How the results depend on the processing

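The 129 members became 126 with TMM scaling, 131 with RLE scaling and 115 with a pseudocount of 1 CPM. A control minimum of 1 CPM gave 182 and a minimum of 20 CPM left 83. An 8-fold limit left 83 and a 2-fold limit gave 214. Leaving 1 of the 6 comparison libraries out of the rule gave 130 to 151. Each of these sets held all 129, as it must, since a rule with fewer libraries is only looser. Members in the muscle list were 9 at the 2-fold limit, those in the lamellocyte list 2, and those in the salivary gland list 4 at the 2-fold limit and 0 at the 8-fold limit, where ng3 and ng1 drop out. The median log2 ratio of the scrib wing library over control was -3.17 with a pseudocount of 1 CPM, which shrinks ratios of low genes, and -4.01 to -4.00 under the other scalings. Without the 8 muscle members it was -4.14, an alternative that was added after the values were seen and keeps the 3 identifiers without a symbol. The count of members at least 4-fold lower there was 109 to 114 under the other scalings and the pseudocount of 1 CPM. Without the 3 identifiers that have no symbol, also added later, the members were 126. No paired analysis was possible because each group had 1 library. Depth limits the ratios of members that are at or under 3 counts in a library, which are 34 to 46 of the members in each of the 6.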

Other observations

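A further 57 genes outside the left-out symbols met the rule in all but 1 of the 6 other eye-antennal libraries. The library that kept them out was scrib BskDN for 22, the late tumour for 19, RasV12 and BskDN for 6 each, the early tumour for 3 and RasV12 scrib BskDN for 1. Those kept out by scrib BskDN included sad, a P450 gene of ecdysone synthesis in the ring gland, at 243 CPM in scrib BskDN, 7.41 to 66.2 CPM in the other 5 and 268 CPM in control. GstE14, which is also needed for ecdysone synthesis, was at 14.0 CPM in scrib BskDN, 0.152 to 4.70 CPM in the other 5 and 21.7 CPM in control. The muscle genes Zasp66 (65.2 CPM in scrib BskDN, at most 19.7 CPM in the other 5, 178 CPM in control), sals and GluRIIC were kept out by the same library. The late tumour kept out the mucin gene Muc68Ca, at 65.7 CPM there, at most 14.9 CPM in the other 5, 70.4 CPM in the scrib wing library and 181 CPM in control, and CecC, a cecropin gene. These genes were named after their values were seen.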
